A study of Homo sapiens with 18 samples.

Results

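Expression of 42 genes of glycolysis and of the response to low oxygen was followed in THP-1 macrophages, out of 60623 genes in the table of counts. The genes were taken by symbol from a list chosen with earlier results of these data known. Shares of the list set beside those of all genes therefore describe this list only. It holds 25 glycolysis genes (glucose and lactate transporters, the enzymes between them and their regulators) and 17 other genes of the hypoxia response. All 42 symbols were found, and 41 passed the filter on low counts, 25 in the first list and 16 in the second. The exception was CA9, carbonic anhydrase 9, a classic target of the hypoxia factors, which had 0 counts in all 18 libraries. A count of 0 allows a level of up to 0.114 to 0.221 CPM, depending on the library (3 counts, counting error only). For CA9, 38.5% of exon bases lie in a gene on the opposite strand. The sources used here do not give the strand setting of the counting. Positions are those of GENCODE release 29 on GRCh38: SLC2A1 lies at chr1:42925375-42959176, HK2 at chr2:74833981-74893359, PFKFB3 at chr10:6144934-6254644, CA12 at chr15:63321378-63382161 and EPAS1 at chr2:46293667-46386703.

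THP-1 is an established human monocytic leukaemia line. For 24 h all cells were given PMA at 100 nM, a phorbol ester that turns them into macrophage-like cells, in a culture medium with 2.5 g/L glucose. One line held an empty vector (EV). By label, another (S5) expressed Siglec-5 and another (S14) Siglec-14, a pair of receptors on myeloid cells that bind sialic acid. Each line was then kept in mock medium or for 48 h in 50% medium conditioned by SW620, a colorectal cancer line (CM in the names of groups). This gave 6 groups of 3 libraries: EV mock, EV CM, S5 mock, S5 CM, S14 mock and S14 CM. The labels name no clone, promoter or integration site for a line, and leave unsaid whether the 3 replicates of a group were grown separately. The p-values therefore reflect the spread among these libraries, which may be technical.

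Glycolysis takes up glucose, splits it to pyruvate with a net gain of ATP, and in activated macrophages exports much of the carbon as lactate. Its genes are among the best known targets of the hypoxia-inducible factors, heterodimers whose alpha subunits (HIF1A, EPAS1) are hydroxylated by the EGLN enzymes when oxygen is present and then degraded. Hypoxia targets outside glycolysis serve blood vessel growth, acid balance, mitophagy, collagen hydroxylation and feedback on the factor itself.

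Library totals ran from 14962531 to 26045281 counts. The first principal component (43.3% of the variance) set the S14 libraries apart, and the libraries numbered 3 stood apart from those numbered 1 and 2 on the second (23.6%), so values are given by replicate number. SIGLEC14 was at 503 to 926 CPM in S14, 29.5 to 44.1 CPM in S5 and 13.0 to 22.7 CPM in EV. SIGLEC5 was at 0.437 to 0.878 CPM in S5 and 0.404 to 1.14 CPM in EV. A second gene row of that symbol was at 0.152 to 0.274 CPM in S5, 0 in EV and 0 to 0.39 CPM in S14. SIGLEC5 and SIGLEC14 have nearly identical parts, and whether reads were assigned between them correctly, or the introduced sequence holds the counted exons, was not tested. Because the SIGLEC5 counts do not show the labelled receptor clearly, that line is called the line labelled S5. Of 13 macrophage markers, 11 were above 1 CPM in every library. CD68 reached at most 1.62 CPM and MRC1 1.72 CPM. Of 13 colorectal epithelial markers, EPCAM, KRT20, CEACAM5 and KRT19 had no counts in any library and 1, CLDN7, was above 1 CPM in every library, at 6.96 to 23.7 CPM. The list summed to 7.25 to 24.1 CPM.

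Levels of different genes were compared on the deposited TPM scale, which corrects for transcript length. In EV mock, GAPDH, the dehydrogenase in the middle of the pathway, had the highest level with 3039 ± 296 TPM (SD, n = 3). ENO1 followed with 672 ± 39.8 TPM, PKM with 533 ± 26.4 TPM, PGK1 with 382 ± 16.4 TPM, and LDHA and TPI1 with 304 ± 46.9 and 303 ± 13.3 TPM. The last pair did not differ beyond their spread. The enzymes from hexokinase to phosphofructokinase were lower. PFKL, the liver-type phosphofructokinase, was at 93.2 ± 24.1 TPM and GPI at 68.9 ± 14.4 TPM. The hexokinases HK3, HK2 and HK1 were at 64.4 ± 4.55, 64.2 ± 33.6 and 48.7 ± 1.83 TPM. ALDOA, the main aldolase of most tissues, was listed at only 17.7 ± 5.94 TPM; 42.3% of its exon bases lie in a second gene model on the same strand, so its counts are uncertain. LDHB shares 33.4% of its exon bases in the same way.

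**Figure D1:**
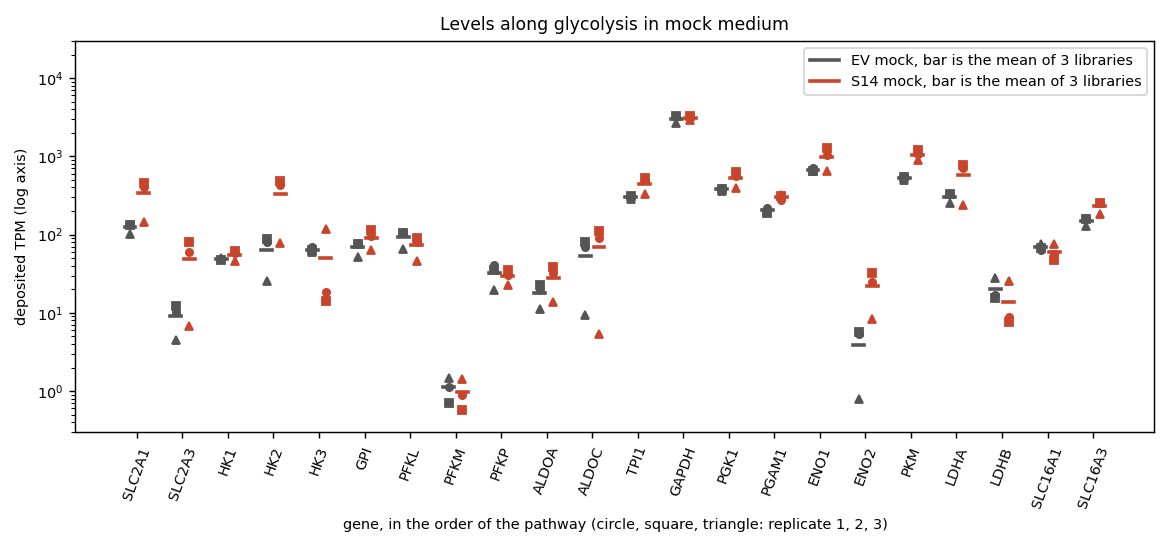
Deposited TPM (log axis) of transporters and enzymes in the order of the pathway, for 3 EV and 3 S14 libraries in mock medium; symbols are single libraries by replicate number and bars are means. HK2 stands at 426 and 482 TPM in S14 replicates 1 and 2 and at 78.0 TPM in replicate 3, against 25.7 to 86.7 TPM in EV.

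The comparison of the S14 and EV lines in mock medium asks how the glycolysis genes differ with the receptor carried, before any tumour medium. Of 25 glycolysis genes, 13 were higher in S14 and 0 lower (edgeR quasi-likelihood test, adjusted p under 0.05), which is 52.0% of the list against 20.0% of all 17851 genes tested. Called genes lay at most steps: the glucose transporter SLC2A1, hexokinase 2, GPI, both PFKFB regulators, TPI1, PGK1, PGAM1, both enolases, PKM, LDHA and the lactate exporter SLC16A3. The median log2 fold change of the list was 0.74, beside -0.02 over all genes. With the replicate number as a block, 17 were higher and 0 lower, against 37.4% of all genes.

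The first step is uptake. SLC2A1 (GLUT1), the main glucose carrier of macrophages, was at 162, 159 and 137 CPM in EV replicates 1 to 3 and at 542, 629 and 231 CPM in S14. Every S14 library lay above every EV library, with the third nearest to them. SLC2A1 was 3.06-fold higher in S14 (log2 fold change 1.61 ± 0.29 SE, adjusted p = 0.00106, edgeR). SLC2A3 (GLUT3), a carrier of higher affinity, was at 16.7, 20.5 and 8.21 CPM in EV and 110, 150 and 15.1 CPM in S14. The groups overlapped, and its difference did not pass the test (log2 fold change 2.60 ± 0.92 SE, adjusted p = 0.0586 by edgeR, 0.0232 by DESeq2 and 0.00304 with the replicate block).

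Hexokinase traps glucose as glucose 6-phosphate, and the proportions of its 3 genes differed between libraries. HK2, the inducible form bound to mitochondria, was at 129, 143 and 47.1 CPM in EV and 781, 904 and 173 CPM in S14. Both lines had their lowest value in replicate 3, and the groups did not overlap. HK2 was 5.82-fold higher in S14 (log2 fold change 2.54 ± 0.69 SE, adjusted p = 0.0166, edgeR). HK3, the form of myeloid cells, was at 60.6, 57.6 and 60.1 CPM in EV and at 18.6, 14.5 and 142 CPM in S14. HK3 was thus below all EV libraries in S14 replicates 1 and 2 and above them in replicate 3, and the fit gave a log2 fold change of -0.02 ± 0.61 SE (adjusted p = 0.985, edgeR). Without the libraries numbered 3, HK3 was lower in S14 (log2 fold change -1.84, adjusted p = 1.86e-13, edgeR). That fit held only replicates 1 and 2 and called 55.6% of all genes. HK3 was picked for report after its values were seen. HK1, the housekeeping form, was at 81.1, 80.4 and 96.6 CPM in EV and 112, 119 and 107 CPM in S14 (adjusted p = 0.19, edgeR; 0.0227 with the block).

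On the TPM scale HK2 made up 40.6%, 43.8% and 18.8% of the summed hexokinase level in EV mock and 84.6%, 86.5% and 32.3% in S14 mock. The share was higher in S14 within each replicate number, but the groups overlapped (exact two-sided permutation test over 3 against 3 libraries, p = 0.3). The smallest p that test can give is 0.1. The HK1 share reached it, with 24.5%, 23.8% and 37.2% in EV and 11.7%, 11.0% and 19.2% in S14 (exact permutation test, p = 0.1). In S14 CM, the HK2 share was 72.6%, 72.7% and 29.1%. HK2 was the most abundant hexokinase of S14 replicates 1 and 2 in both media. In S14 replicate 3 HK3 had the largest share on the TPM scale, with 48.6% in mock and 49.3% in conditioned medium, but on the CPM scale HK2 did, with 41.0% and 37.1%.

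**Figure D2:**
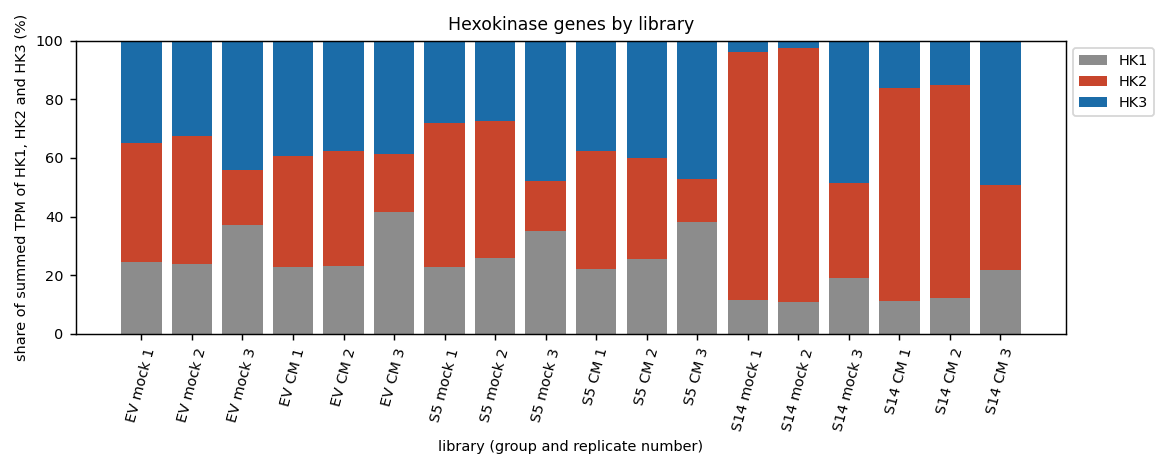
Share (%) of HK1, HK2 and HK3 in their summed deposited TPM, 1 bar per library, grouped by line and medium. The HK2 share is 84.6% and 86.5% in S14 mock replicates 1 and 2 and 32.3% in replicate 3, where HK3 holds 48.6%.

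The next steps commit the sugar to breakdown. The PFKFB enzymes set the level of fructose 2,6-bisphosphate, the activator of phosphofructokinase. PFKFB3 was at 31.8, 33.0 and 31.1 CPM in EV and 52.0, 52.4 and 49.5 CPM in S14. The libraries of each line lay close together, replicate 3 included, and PFKFB3 had the smallest p of all 41 genes in this comparison (log2 fold change 0.68 ± 0.10 SE, adjusted p = 0.000179, edgeR). PFKFB4 was at 58.9, 56.3 and 52.7 CPM in EV and at 152, 153 and 225 CPM in S14 (log2 fold change 1.66 ± 0.28 SE, adjusted p = 0.000764, edgeR). It was highest in S14 replicate 3, unlike most genes of both lists. Of the summed PFKFB3 and PFKFB4 level, PFKFB4 held 62.9% to 64.9% in EV and 74.5% to 82.0% in S14 (exact permutation test, p = 0.1).

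Phosphofructokinase itself did not pass the test in any of its 3 genes. PFKL had a log2 fold change of -0.15 ± 0.19 SE, PFKP, the platelet form, 0.10 ± 0.19 SE, and PFKM, the muscle form at 1.29 to 3.85 CPM in the mock groups of both lines, 0.04 ± 0.49 SE. GPI, which converts glucose 6-phosphate to fructose 6-phosphate, was higher in S14 (log2 fold change 0.61 ± 0.15 SE, adjusted p = 0.0103, edgeR). The aldolases ALDOA and ALDOC were not called (log2 fold changes 0.86 ± 0.31 and 0.55 ± 1.15 SE).

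TPI1, which acts just before the energy-yielding stage, was at 221, 229 and 235 CPM in EV and 401, 436 and 324 CPM in S14 (log2 fold change 0.76 ± 0.14 SE, adjusted p = 0.00154, edgeR). PKM, pyruvate kinase of most tissues, was at 1263, 1258 and 1308 CPM in EV and 2742, 3190 and 2828 CPM in S14 (log2 fold change 1.19 ± 0.22 SE, adjusted p = 0.00154, edgeR). Both genes were higher in S14 in every library, PKM about equally in the 3 replicates. PGK1, PGAM1 and ENO1 were higher by log2 fold changes of 0.66 to 0.78. ENO2, an enolase best known from neurons, was at 6.01, 6.64 and 1.03 CPM in EV and 32.0, 43.1 and 12.9 CPM in S14 (log2 fold change 2.69 ± 0.87 SE, adjusted p = 0.0394, edgeR). On the TPM scale it made up 0.731%, 0.871% and 0.122% of the summed enolase level in EV. In S14 its share was 2.35%, 2.50% and 1.24% (exact permutation test, p = 0.1). GAPDH, often used as a reference gene, was at 1958 to 2107 CPM in EV and 2289 to 2553 CPM in S14, without overlap, and did not pass the test (log2 fold change 0.25 ± 0.12 SE, adjusted p = 0.155 by edgeR and 0.0215 by DESeq2).

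LDHA, which turns pyruvate to lactate, was at 526, 547 and 457 CPM in EV and 1299.7, 1454 and 530 CPM in S14. S14 replicate 3 lay between the EV values, and LDHA was still called (log2 fold change 1.10 ± 0.26 SE, adjusted p = 0.00661, edgeR). On the TPM scale replicate 3 of S14, at 239 TPM, was below replicate 3 of EV, at 250 TPM. LDHB, whose subunit favours the reverse reaction, was at 13.2, 12.5 and 25.3 CPM in EV and 7.91, 7.10 and 27.7 CPM in S14 and was not called (log2 fold change -0.26 ± 0.50 SE). SLC16A3 (MCT4), the lactate exporter of glycolytic cells, was at 392, 385 and 347 CPM in EV and 696, 709 and 610 CPM in S14 (log2 fold change 0.84 ± 0.13 SE, adjusted p = 0.000371, edgeR). Its relative SLC16A1 (MCT1) had a log2 fold change of 0.04 ± 0.24 SE. PDK1, a pyruvate dehydrogenase kinase, was at 21.1 to 25.2 CPM in EV and 43.4, 47.9 and 23.2 CPM in S14. It did not pass the test (adjusted p = 0.0873 by edgeR and 0.0057 by edgeR with the block).

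Hypoxia genes outside glycolysis, a list that also holds the factor subunits HIF1A and EPAS1, showed the same direction. Of 16 tested, 7 were higher in S14 mock than in EV mock and 0 lower, which is 43.8% against 20.0% of all genes. All 16 estimates were positive, with a median log2 fold change of 1.15. With the replicate block 14 were higher, and without the libraries numbered 3 all 16 were, where 37.4% and 55.6% of all genes were called.

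CA12, a membrane carbonic anhydrase that acidifies the outside of the cell, was nearly absent from EV, at 0.0954, 0.186 and 0.114 CPM, and was at 6.10, 6.38 and 2.38 CPM in S14. It had the largest log2 fold change of both lists (5.18 ± 0.74 SE, adjusted p = 0.0002, edgeR), at a low level throughout. ADM, which encodes the vasodilator adrenomedullin, was at 17.8, 16.1 and 16.2 CPM in EV and 153, 188 and 31.9 CPM in S14 (log2 fold change 2.89 ± 0.60 SE, adjusted p = 0.00308, edgeR). The S14 libraries exceeded EV in each replicate, and by far less in the third. VEGFA, the main growth factor of blood vessels, was at 140, 159 and 67.1 CPM in EV and 544, 628 and 225 CPM in S14 (log2 fold change 1.93 ± 0.53 SE, adjusted p = 0.0167, edgeR).

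NDRG1, a stress-induced gene linked to differentiation, was at 180, 204 and 114 CPM in EV and 767, 919 and 324 CPM in S14 (log2 fold change 2.01 ± 0.46 SE, adjusted p = 0.00622, edgeR). HILPDA, an inhibitor of lipid breakdown at lipid droplets, was at 10.7, 9.28 and 9.69 CPM in EV and 31.1, 43.5 and 11.0 CPM in S14 (log2 fold change 1.53 ± 0.36 SE, adjusted p = 0.00673, edgeR). For HILPDA the third replicates of both lines were nearly alike. P4HA2, a collagen prolyl hydroxylase subunit, was at 8.39, 10.0 and 4.83 CPM in EV and 21.9, 28.4 and 12.8 CPM in S14 (log2 fold change 1.44 ± 0.36 SE, adjusted p = 0.01, edgeR).

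Of both factor subunits, EPAS1 (HIF-2 alpha) was at 46.2, 45.0 and 34.5 CPM in EV and 109, 102 and 78.3 CPM in S14 (log2 fold change 1.20 ± 0.19 SE, adjusted p = 0.000399, edgeR). HIF1A was at 88.9, 81.4 and 119 CPM in EV and 130, 115 and 137 CPM in S14, with overlap, and was not called (log2 fold change 0.40 ± 0.22 SE, adjusted p = 0.221, edgeR; 0.0404 with the block). The transcripts say nothing of the HIF proteins, which are controlled mainly by their stability. The EPAS1 share of the summed alpha subunit level was 26.9%, 28.1% and 17.0% in EV and 37.2%, 38.5% and 28.8% in S14 (exact permutation test, p = 0.1). Of the enzymes that mark the factors for decay, EGLN3 was at 2.38, 2.88 and 0.0760 CPM in EV and 17.8, 25.5 and 0.535 CPM in S14, and EGLN1 at 15.7 to 22.2 and 11.8 to 30.2 CPM. Neither was called (log2 fold changes 3.05 ± 1.52 and 0.18 ± 0.31 SE); EGLN3 was with the block (adjusted p = 4.39e-06, edgeR). The mitophagy receptors BNIP3 and BNIP3L, the histone demethylase KDM3A, the collagen hydroxylase P4HA1, the MYC antagonist MXI1 and ANKRD37 were not called in the main fit. Their log2 fold changes were 0.64 to 1.10. With the block, 14 of the 16 hypoxia genes were called, most of these among them. For ANKRD37, 35.2% of exon bases lie in a gene on the opposite strand, and the sources used here do not give the strand setting of the counting.

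**Figure D3:**
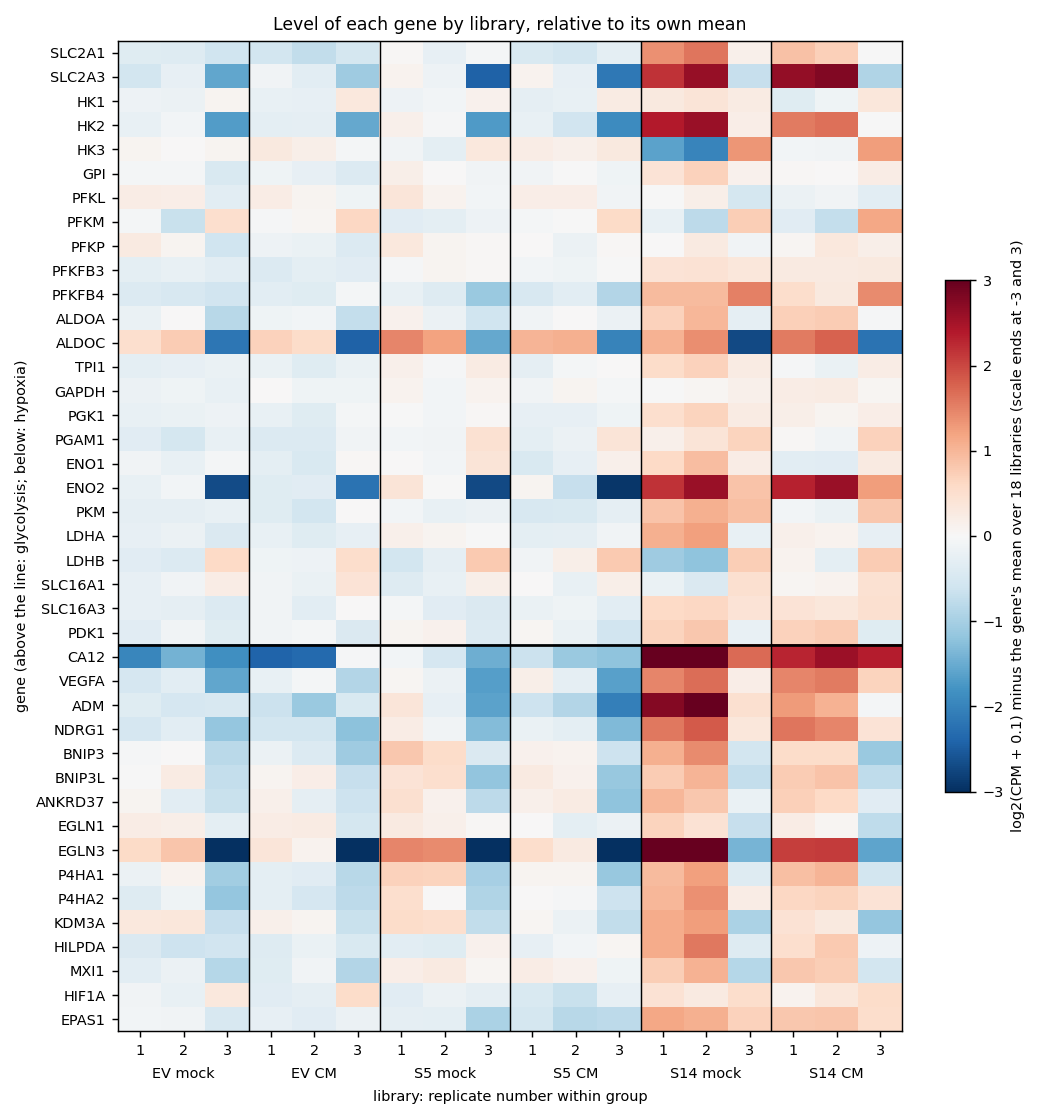
Level of 41 genes (rows) in 18 libraries (columns, 3 per group by replicate number), as log2(CPM + 0.1) minus the mean of the gene; red is above and blue below that mean. S14 replicates 1 and 2 are above the mean for most genes, and in each group replicate 3 is below replicates 1 and 2 for EGLN3, ALDOC, SLC2A3, ENO2 and HK2.

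The number of calls between S14 and EV in mock medium depended on which replicate number was left out. With the libraries numbered 1 left out of every group, 0 glycolysis and 1 hypoxia gene were called, and with those numbered 2 left out, 1 and 1. These fits called 1.82% and 2.57% of all genes. The median log2 fold changes moved less, to 0.70 and 1.15 for glycolysis and hypoxia genes without the libraries numbered 1 and to 0.64 and 1.02 without those numbered 2. With the libraries numbered 3 left out, 18 glycolysis genes were higher and 2 lower, HK3 and LDHB, against 55.6% of all genes called. Taken by replicate number, the median log2 difference of S14 from EV was 0.71, 0.88 and 0.48 for glycolysis and 1.18, 1.31 and 0.57 for hypoxia genes. The direction was shared: 20, 20 and 23 of 25 glycolysis genes and 16, 16 and 14 of 16 hypoxia genes were higher in S14, while 47.3% to 49.7% of all genes were. Leaving out single libraries ended the calls of HK2 (without EV replicate 3 or S14 replicate 1 or 2), VEGFA (the same 3), ENO2 (without any of 5 libraries), ENO1 and PGAM1 (without any of 4), and GPI and P4HA2 (without S14 replicate 2). Without S14 replicate 2, 8 glycolysis genes were called.

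The lines were also compared in conditioned medium. There 5 glycolysis genes (SLC2A1, PFKFB3, PFKFB4, ENO2 and SLC16A3) and 3 hypoxia genes (CA12, NDRG1 and EPAS1) were higher in S14 than in EV and 0 were lower. These are 20.0% and 18.8% of the lists, against 11.1% of all genes. PFKFB3 again had the smallest p (log2 fold change 0.62 ± 0.10 SE, adjusted p = 0.000551, edgeR). ENO2 had the largest log2 fold change of the glycolysis list (2.93 ± 0.88 SE, adjusted p = 0.0422, edgeR), with 5.49, 5.61 and 1.45 CPM in EV and 35.5, 43.2 and 17.0 CPM in S14. With the replicate block 12 and 9 genes were called, against 23.6% of all genes. Median log2 differences by replicate number were 0.36, 0.45 and 0.45 for glycolysis and 0.98, 1.09 and 0.32 for hypoxia genes. Leaving out EV CM replicate 2 reduced the glycolysis calls to 1, PFKFB3, and leaving out EV CM replicate 1 or S14 CM replicate 1 reduced them to 3.

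**Figure D4:**
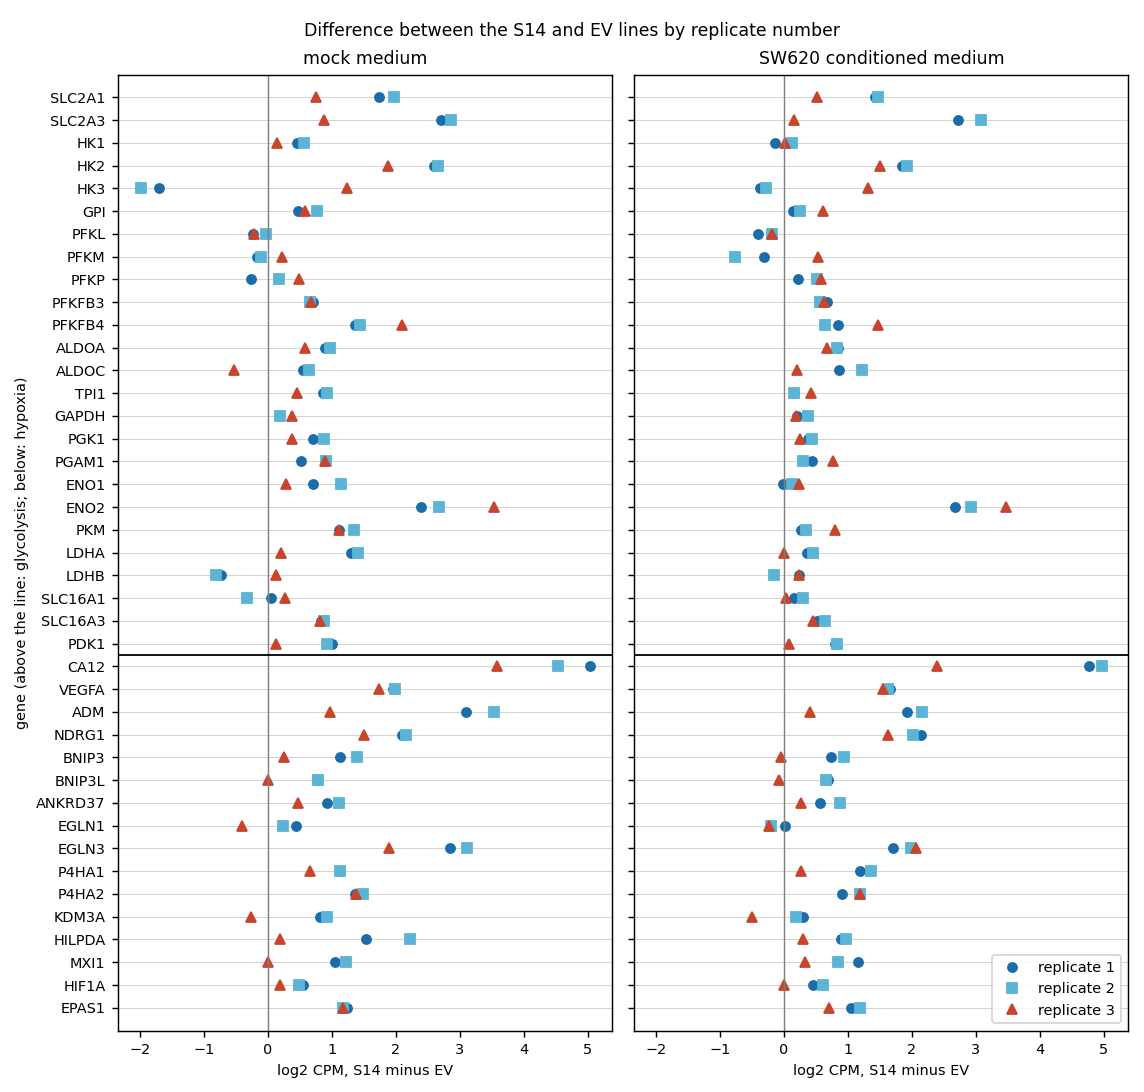
Log2 CPM (prior count 2) of S14 minus EV for 41 genes, in mock and in conditioned medium, with 1 symbol per replicate number. In mock medium the medians by replicate are 0.71, 0.88 and 0.48 for glycolysis and 1.18, 1.31 and 0.57 for hypoxia genes; CA12, ENO2 and VEGFA are to the right of 0 in all 3 replicates of both media.

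Against the line labelled S5, which shares its S14 libraries with the comparisons above, 8 glycolysis genes (SLC2A1, HK2, PFKFB3, PFKFB4, PGK1, PKM, LDHA and SLC16A3) and 7 hypoxia genes (CA12, VEGFA, ADM, NDRG1, HILPDA, HIF1A and EPAS1) were higher in S14 in mock medium, with 21.5% of all genes called. In conditioned medium 5 (SLC2A1, PFKFB3, PFKFB4, ENO2 and SLC16A3) and 6 (CA12, VEGFA, ADM, NDRG1, HIF1A and EPAS1) were higher, with 13.8% of all genes called. No gene of the lists was lower in either medium. EPAS1 had the smallest p of both lists in both media, with log2 fold changes of 1.46 ± 0.19 SE (adjusted p = 8.1e-05, edgeR) and 1.45 ± 0.19 SE (adjusted p = 0.000139, edgeR). HIF1A was called here, with log2 fold changes of 0.67 ± 0.22 SE in mock (adjusted p = 0.0367, edgeR) and 0.79 ± 0.22 SE in conditioned medium (adjusted p = 0.0233, edgeR). The mock call of HIF1A was lost without any 1 of the 6 libraries. With the block, 17 and 11 genes were called in mock and 11 and 10 in conditioned medium, against 38.5% and 26.6% of all genes. The hypoxia calls dropped to 3 in mock medium without S14 replicate 1 or 2 and to 4 without S5 replicate 2 or 3; the glycolysis calls were 5 without S14 replicate 2 and 16 without S14 replicate 3. In conditioned medium the glycolysis calls ran from 2, without S5 replicate 2, to 8, without S14 replicate 3, and the hypoxia calls were 2 without S14 replicate 2 and 3 without S14 replicate 1 or S5 replicate 2 or 3.

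Between the line labelled S5 and EV no gene of either list was called in mock or conditioned medium, and edgeR called 0% and 0% of all genes. DESeq2 called 0 genes of both lists too. At an unadjusted p under 0.05 there were 2 glycolysis and 0 hypoxia genes in mock medium and 1 and 2 in conditioned medium. The share of all genes under that unadjusted p is not given here, so these counts have no background beside them. In mock medium 21 of 25 glycolysis estimates and 14 of 16 hypoxia estimates were positive, with medians of 0.18 and 0.33 beside 0.03 over all genes. Without the libraries numbered 3, 1 glycolysis and 4 hypoxia genes were called higher in mock medium, while 1.97% of all genes were called.

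The response to conditioned medium was tested within each line, and edgeR called no gene of either list in any of them. In EV, where edgeR called 0.00560% of all genes, no gene of the lists was under an unadjusted p of 0.05 and DESeq2 called 0. SLC16A3, PFKP, PFKFB4 and GAPDH had the smallest p of the glycolysis list there, with log2 fold changes of 0.17 ± 0.13, -0.22 ± 0.19, 0.25 ± 0.28 and 0.10 ± 0.12 SE. PFKFB4 was at 58.9, 56.3 and 52.7 CPM in EV mock and 63.0, 61.3 and 75.3 CPM in EV CM. In the line labelled S5, where 0.00560% of all genes were called, no gene of the lists was called by edgeR or DESeq2 and 0 were under an unadjusted p of 0.05. TPI1, PGK1, ENO1 and SLC2A1 had the smallest p of the glycolysis list there, with log2 fold changes of -0.23 ± 0.14, -0.19 ± 0.12, -0.29 ± 0.22 and -0.35 ± 0.28 SE. SLC2A1 was at 215, 177 and 201 CPM in S5 mock and 151, 143 and 170 CPM in S5 CM, lower in each replicate. Without the libraries numbered 3, the test in this line called 1 glycolysis gene higher and 4 lower and 6 hypoxia genes lower, with 7.06% of all genes called.

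In S14, where 0.0504% of all genes were called, 6 glycolysis genes and 1 hypoxia gene were under an unadjusted p of 0.05 and none was called by edgeR. DESeq2 called 3 glycolysis genes. The shares of all genes called by DESeq2 or under that unadjusted p are not given here, so these counts have no background beside them. TPI1 came nearest, at 401, 436 and 324 CPM in mock and 264, 236 and 315 CPM in conditioned medium (log2 fold change -0.51 ± 0.14 SE, adjusted p = 0.0915 by edgeR and 0.0151 by DESeq2). LDHA was at 1299.7, 1454 and 530 CPM in mock and 685, 663 and 525 CPM in conditioned medium (log2 fold change -0.81 ± 0.25 SE, adjusted p = 0.123 by edgeR). PKM was at 2742, 3190 and 2828 CPM in mock and 1425, 1315 and 2673 CPM in conditioned medium (log2 fold change -0.69 ± 0.22 SE, adjusted p = 0.125 by edgeR). For TPI1, LDHA and PKM the first and second replicates were lower in conditioned medium and the third was nearly level. ENO1 behaved alike, at 1622, 2047 and 1254 CPM in mock and 866, 854 and 1303 CPM in conditioned medium.

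Of the hypoxia genes in S14, ADM was at 153, 188 and 31.9 CPM in mock and 55.6, 47.1 and 22.0 CPM in conditioned medium (log2 fold change -1.58 ± 0.57 SE, adjusted p = 0.169, edgeR). It was lower in each replicate number. KDM3A was at 151, 166 and 35.7 CPM in mock and 93.8, 84.1 and 30.9 CPM in conditioned medium (log2 fold change -0.76 ± 0.52 SE). VEGFA was nearly level in replicate 1, at 544, 628 and 225 CPM in mock and 542, 583 and 312 CPM in conditioned medium. With the replicate block, 5 glycolysis genes (HK2, TPI1, ENO1, PKM and LDHA) and 2 hypoxia genes (BNIP3 and EGLN3) were lower in conditioned medium, while 11.0% of all genes were called. The adjusted p with the block was 0.0226 for PKM, 0.0257 for TPI1 and 0.0154 for EGLN3 (edgeR). Leaving out S14 mock replicate 3 alone gave 7 glycolysis and 2 hypoxia genes called, and leaving out S14 CM replicate 3 alone gave 3 and 0. The shares of all genes called in these single-library fits are not given here, so these counts have no background beside them. Without the libraries numbered 3, 4 glycolysis genes were higher and 13 lower and 9 hypoxia genes were lower, with 45.2% of all genes called.

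By replicate number, the median log2 difference of conditioned from mock medium in S14 was -0.16, -0.28 and -0.01 for glycolysis and -0.36, -0.37 and -0.06 for hypoxia genes. Medians over all genes were 0.06, 0.07 and 0.01. In S14 replicates 1 to 3, 10, 9 and 12 of 25 glycolysis genes were higher in conditioned medium. HK3 rose most in replicates 1 and 2, from 18.6 and 14.5 CPM in mock to 54.2 and 53.4 CPM in conditioned medium. In replicate 3 it was at 142 and 137 CPM. LDHB rose too in replicates 1 and 2, by log2 differences of 1.18 and 0.93. In the line labelled S5 the medians were -0.25, -0.10 and -0.05 for glycolysis and -0.37, -0.44 and -0.04 for hypoxia genes. In EV they were 0.01, -0.10 and 0.13 for glycolysis and -0.08, -0.24 and 0.04 for hypoxia genes.

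**Figure D5:**
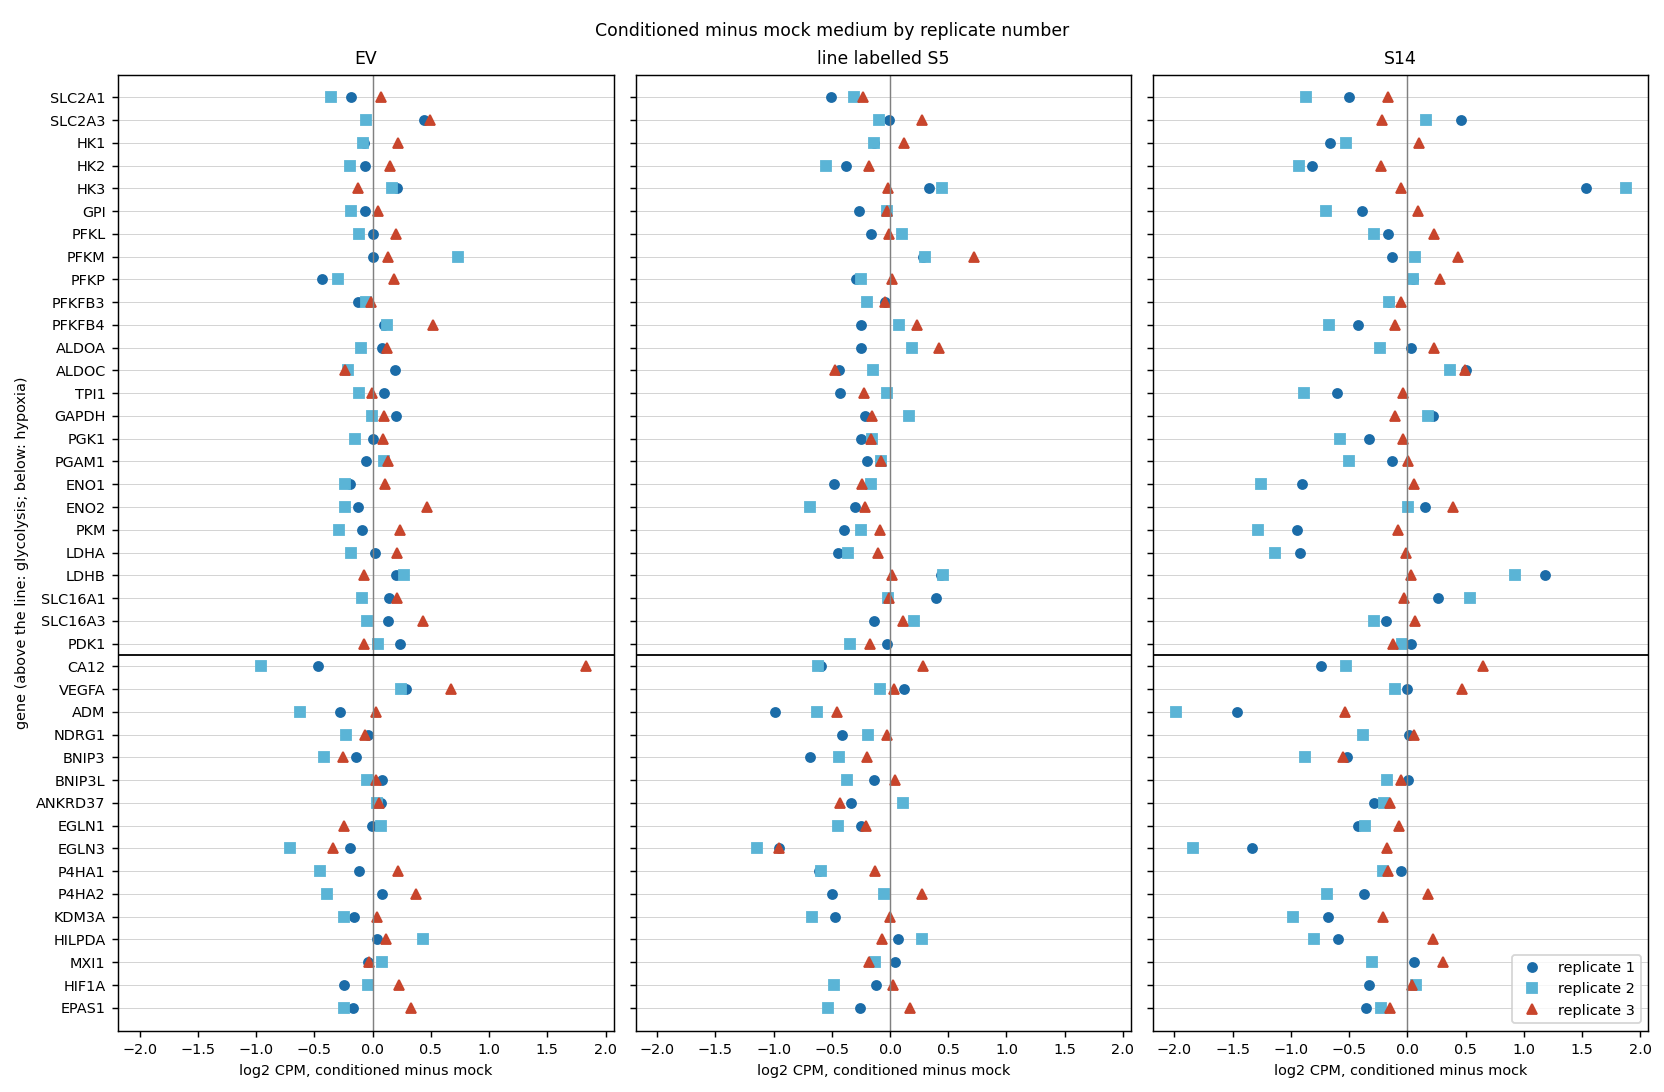
Log2 CPM (prior count 2) of conditioned minus mock medium for 41 genes in the 3 lines, with 1 symbol per replicate number and 1 scale for all panels. In S14 the medians by replicate are -0.16, -0.28 and -0.01 for glycolysis and -0.36, -0.37 and -0.06 for hypoxia genes, and ADM and EGLN3 are below -1 in replicates 1 and 2.

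The difference in response between lines was tested as an interaction. For S14 against EV, edgeR called 0% of all genes and none of either list, DESeq2 called 0 of either list, and 3 glycolysis genes and 0 hypoxia genes were under an unadjusted p of 0.05. LDHA had a difference in response of -0.82 ± 0.36 SE and PKM of -0.66 ± 0.31 SE on the log2 scale (adjusted p = 1.0 for both, edgeR). Without S14 mock replicate 3 alone, 2 glycolysis genes were called. The share of all genes is not given here for that fit or for the unadjusted p. Without the libraries numbered 3, 2 glycolysis genes had a higher and 11 a lower response in S14, as had 0 and 6 hypoxia genes, with 24.3% of all genes called. For the line labelled S5 against EV, 0% of all genes and no gene of the lists were called, 0 and 0 were under an unadjusted p of 0.05, and DESeq2 called 0. These comparisons share the S14 mock libraries, or the EV libraries, with those between lines.

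The libraries numbered 3 differed from those numbered 1 and 2 in these genes in every group. Of 16 hypoxia genes, 11 were lower in replicate 3 than in the mean of replicates 1 and 2 in 6 of 6 groups and 0 higher, while 18.4% of all genes were lower in all 6. Of 25 glycolysis genes, 7 were lower in all 6 groups, and 4 (SLC16A1, PGAM1, PFKM and LDHB) were higher, which is 16.0% beside 17.8% of all genes. EGLN3 had the widest gap, with log2 differences of -5.09 to -3.68 over the groups. It was followed by ALDOC, an aldolase best known from brain, at -3.93 to -2.81, SLC2A3 at -3.61 to -0.87, ENO2 at -2.90 to -1.20 and HK2 at -2.28 to -1.25. The differences of PFKFB3 were -0.08 to 0.08 and those of GAPDH -0.18 to 0.12. The labels give only the replicate number, and no test was run, since the numbers stand for no named condition.

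Other measures moved with these differences. The summed level of 10 cycling-cell markers was 546 and 491 CPM in EV mock replicates 1 and 2 and 905 CPM in replicate 3, and 114, 110.5 and 662 CPM in S14 mock. Genes of the mitochondrial chromosome took 1.90% to 4.90% of counts in replicates 1 and 2 and 4.94% to 5.85% in replicate 3, and 2.00%, 1.90% and 5.85% in S14 mock. S14 mock replicates 1 and 2 thus had the lowest cycling sums and mitochondrial shares together with the highest SLC2A1, HK2 and LDHA levels. Summed macrophage markers ranged from 4880 to 6614 CPM over all libraries and were lowest in S14 replicate 3. The part of these measures in the results was not tested. In bulk RNA, fewer cells of a kind and less RNA per cell cannot be told apart.

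Promoters of the lists are shown because hypoxia-inducible factors bind a short core, ACGTG or GCGTG, read here on both strands with overlapping matches merged (CACGTG, which reads the same on both strands, counts once). In RefSeq windows on GRCh38.p14, from 250 bases before to 50 after a start, 36 of 42 genes had at least 1 window. Of their 66 windows, 44 (66.7%) held a match, beside 48.4% of all 35116 windows, and 12.1% beside 7.54% held 3 or more. The 5 windows of these genes with 4 or more matches follow, 5′ to 3′ on the strand of the gene, with matches in capitals.
HK2 (chr2:74834920-74835219, plus strand, 4 matches): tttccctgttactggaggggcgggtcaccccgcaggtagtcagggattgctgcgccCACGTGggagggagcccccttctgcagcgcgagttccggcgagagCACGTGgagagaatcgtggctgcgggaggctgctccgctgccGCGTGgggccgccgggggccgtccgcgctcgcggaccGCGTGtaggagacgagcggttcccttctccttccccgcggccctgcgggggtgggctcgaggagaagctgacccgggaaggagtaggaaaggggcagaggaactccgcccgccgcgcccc
ALDOC (chr17:28576846-28577145, minus strand, 4 matches): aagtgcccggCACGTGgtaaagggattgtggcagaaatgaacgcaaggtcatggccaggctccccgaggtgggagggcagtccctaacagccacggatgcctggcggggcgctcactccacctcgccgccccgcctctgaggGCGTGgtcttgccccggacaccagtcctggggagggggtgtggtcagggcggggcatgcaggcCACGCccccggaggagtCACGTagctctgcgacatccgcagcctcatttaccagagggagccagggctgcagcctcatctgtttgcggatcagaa
PGK1 (chrX:78103998-78104297, plus strand, 4 matches): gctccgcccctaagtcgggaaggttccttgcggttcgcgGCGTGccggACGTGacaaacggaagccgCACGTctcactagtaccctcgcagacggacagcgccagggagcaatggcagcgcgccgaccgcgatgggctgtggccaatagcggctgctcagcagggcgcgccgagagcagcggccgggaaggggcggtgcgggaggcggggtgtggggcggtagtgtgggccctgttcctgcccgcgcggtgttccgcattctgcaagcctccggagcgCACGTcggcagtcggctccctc
LDHA (chr11:18394313-18394612, plus strand, 4 matches): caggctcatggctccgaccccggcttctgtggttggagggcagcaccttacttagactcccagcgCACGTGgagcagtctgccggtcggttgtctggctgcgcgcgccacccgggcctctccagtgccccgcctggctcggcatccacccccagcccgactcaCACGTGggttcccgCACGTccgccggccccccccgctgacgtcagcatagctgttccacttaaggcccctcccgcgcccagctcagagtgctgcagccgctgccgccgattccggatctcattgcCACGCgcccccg
BNIP3 (chr10:131981874-131982173, minus strand, 5 matches): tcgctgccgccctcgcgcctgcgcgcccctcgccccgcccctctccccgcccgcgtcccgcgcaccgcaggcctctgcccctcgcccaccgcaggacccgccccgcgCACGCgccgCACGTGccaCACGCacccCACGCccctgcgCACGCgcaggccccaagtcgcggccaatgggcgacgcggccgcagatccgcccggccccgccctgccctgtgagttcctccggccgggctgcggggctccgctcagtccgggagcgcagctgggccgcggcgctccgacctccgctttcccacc
A match is a description of letters and not a bound site. LDHA and PGK1 were called between S14 and EV in mock medium, as was HK2, whereas ALDOC and BNIP3 were not. HK2, ALDOC and BNIP3 were lower in replicate 3 in all 6 groups, and LDHA in 4 and PGK1 in 1.

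Genes around the pathway were counted from a pair of further lists, also chosen with earlier results of these data known. Of 37 tested genes of glucose handling outside the glycolysis list, 7 were higher and 4 lower in S14 mock than in EV mock, with 20.0% of all genes called and a median log2 fold change of 0.27. PGD, an enzyme of the pentose phosphate pathway, was higher (log2 fold change 0.92 ± 0.15 SE, adjusted p = 0.000574, edgeR). So was FBP1, the gluconeogenic fructose bisphosphatase, at 38.7, 38.9 and 21.6 CPM in EV and 150, 159 and 111 CPM in S14 (log2 fold change 2.08 ± 0.25 SE, adjusted p = 4.81e-05, edgeR). Glycogen phosphorylase PYGL, the pyruvate dehydrogenase kinase PDK4 and PFKFB2 were lower, by log2 fold changes of -1.26, -2.72 and -0.89. In conditioned medium 5 were higher and 3 lower, with 11.1% of all genes called, FBP1 and PGD again among the higher and PDK4, PYGL and SLC2A8 lower.

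Of 40 tested genes of a further oxygen-response list, 15 were higher and 1 lower in S14 mock than in EV mock, with 20.0% of all genes called (median log2 fold change 0.58). In conditioned medium 8 were higher and 1 lower, with 11.1% of all genes called (median 0.45). BHLHE40, a transcriptional repressor, was at 33.9, 33.0 and 21.4 CPM in EV mock and 247, 253 and 130 CPM in S14 mock, and RAB20, a small GTPase, was higher by a log2 fold change of 2.14 ± 0.31 SE (adjusted p = 0.00022, edgeR). PLOD1, a collagen lysyl hydroxylase, was lower (log2 fold change -0.53 ± 0.15 SE, adjusted p = 0.0192, edgeR). In S14 all 3 libraries of BHLHE40 and FBP1 stood above all 3 of EV, replicate 3 included. Neither list had a called gene in the response to conditioned medium of any line; with the replicate block, 2 and 4 were higher and 3 and 6 lower in S14, where 11.0% of all genes were called.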

How the data were processed

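Per the labels' protocols, libraries came from a TruSeq Stranded mRNA kit. The authors deposited raw counts per gene, made with HISAT2 on GRCh38 per the submitters' processing notes, and TPM values; the sources used here do not give HISAT2's version, the counting program, its strand setting or the annotation. Deposited TPM divided by counts gave 1 constant length per gene for 100% of 9390 genes (tolerance 1%).

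Counts were scaled by TMM and filtered by edgeR's default rule by group, which left 17851 of 60623 genes. All 18 libraries entered a robust quasi-likelihood fit with a mean for each group (edgeR 4.0.16, limma 3.58.1, R 4.3.3), and 11 comparisons were tested. Within a comparison, Benjamini-Hochberg adjustment ran over all genes tested, and called means an adjusted p under 0.05. The SE is the log2 fold change divided by the square root of F. CPM use TMM-scaled totals, and differences by replicate number use log2 CPM with a prior count of 2. DESeq2 1.42.0 and the alternatives of the closing section used the same counts. The test was tried on simulated data first.

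Titles number the replicates 1 to 3 in each group. Deviations from group means correlated at 0.155 to 0.794 (median 0.391) in all 45 pairs of libraries with the same number. In the 90 pairs with different numbers the correlations were -0.676 to 0.51 (median -0.372). Because the libraries numbered 3 stood apart, these values cannot show that the other numbers pair libraries across groups. A fit with the number as a block is therefore given only as an alternative, beside results it changes. Members and lists were chosen with earlier results of these data known. Values in every library are given for the members with the smallest p in S14 against EV in mock and in the responses to conditioned medium; HK1, HK2, HK3, SLC2A3, ENO2, LDHA, LDHB, GAPDH, PDK1, VEGFA, HIF1A and EGLN3 were added after their values were seen. Some genes that the rule for named genes takes are not reported here. Promoter windows are from RefSeq, matched by symbol, and gene models from GENCODE release 29.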

Additional observations from a re-analysis of the deposited data

How the results depend on the processing

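Between S14 and another line, 54 calls of a gene in a comparison were made, and none changed direction under any alternative. All 54 held with the replicate block, RLE scaling, DESeq2 and without the libraries numbered 3; 47 held with upper-quartile scaling, 40 without the filter and 34 with only the groups compared. Without every library numbered 1 or 2, 5 and 4 held. Leaving out single libraries kept 29 of the 54 calls in every case. The cause of these changes was not tested.

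Called counts that moved by over 1.5 times are given as glycolysis and hypoxia genes. With the replicate block they were 5 and 2 in the S14 response to conditioned medium and 12 and 9 in S14 against EV in conditioned medium. Against S5 they were 17 and 11 in mock and 11 and 10 in conditioned medium. In S14 against EV in mock, 14 hypoxia genes were called with the block. The block moved no other count of calls by that much and ended no call. DESeq2 gave 3 glycolysis genes in the S14 response, 9 and 6 in S14 against EV in conditioned medium and 9 glycolysis genes against S5 there. Only the groups compared gave 3 and 6 in S14 against EV in conditioned medium, 3 and 3 against S5 in mock and 2 glycolysis genes in conditioned medium. No filter gave 3 glycolysis genes against EV in conditioned medium, and 3 and 3 against S5.

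Leaving out 1 library, or 1 replicate number from every group, gave 0 to 20 glycolysis and 1 to 16 hypoxia genes for S14 against EV in mock, and 0 to 18 and 0 to 14 in conditioned medium. Against S5 the ranges were 1 to 19 and 1 to 16 in mock, and 0 to 15 and 0 to 14 in conditioned medium. The response to conditioned medium ranged from 0 to 17 and 0 to 9 in S14 and 0 to 5 and 0 to 6 in S5. S5 against EV gave 0 to 1 and 0 to 4 in mock and 0 to 2 hypoxia genes in conditioned medium, and the interaction of S14 and EV 0 to 13 and 0 to 6. The highest count in each range came without the libraries numbered 3. Shares of all genes are given only for the main fit, the block and the fits without a replicate number. Counts from the other alternatives therefore have no background beside them. All 54 medians by replicate number moved by less than their spread with a prior count of 0.5, and 40 of 72 isoform shares did with CPM in place of TPM. Counts are limited by depth for CA9, CA12 and EGLN3.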
